A study of Rattus norvegicus with 14 samples.

Results

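The genes described here encode 10 zinc transporters of the rat colonic epithelium, chosen as the Slc39a importers Slc39a4, Slc39a5, Slc39a7, Slc39a8 and Slc39a14 and the Slc30a exporters Slc30a1, Slc30a2, Slc30a5, Slc30a7 and Slc30a10. All 10 were on the array, with 11 of its 30367 non-control probes, matched by gene name. Slc39a14 was read by 2 probes and each other gene by 1. Male Wistar rats aged 5 to 6 weeks at entry received an isocaloric diet for 15 days, ad libitum, in which protein supplied 14% of the energy (normal-protein diet, NPD, 7 rats) or 55% (high-protein diet, HPD, 7 rats). The protein of both diets was whole milk protein, and digestible carbohydrate made up the difference. Colonocytes, the epithelial cells lining the colon, were detached with EDTA, and their RNA was hybridised to 1-colour Agilent arrays, 1 array per rat.

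Zinc cannot cross membranes unaided. Transporters of the Slc39a (ZIP) family move it into the cytosol, either from outside the cell or out of organelles, whereas those of the Slc30a (ZnT) family move it the other way. In the intestine, the metal-sensing transcription factor Mtf1 raises the transcription of metallothioneins, which bind zinc, and of Slc30a1 when cytosolic zinc is high, through short metal response elements in their promoters.

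Values are log2 signals relative to the median of the array, on which a difference of 1 is a doubling, and diet differences are HPD minus NPD. A probe's level cannot be set against another probe's, so only the arrays are compared. The arrays lay on 2 slides, with 4 NPD and 3 HPD arrays on slide 1 and 3 NPD and 4 HPD arrays on slide 2. Between 18839 and 20976 probes per array were well above background. The colonocyte markers Epcam, Cdh1, Krt8, Krt18 and Krt19 were well above background on all 14 arrays, with a mean level of 9.69 ± 0.08 on the NPD arrays and 9.60 ± 0.18 on the HPD arrays (SD, n = 7 each). The median diet difference over all probes was 0.11, and differences are also given relative to it. Fewer cells of a type and less RNA per cell cannot be told apart in such bulk samples.

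Slc39a4 was lower and Slc30a1 was higher in HPD colonocytes by an exact permutation test of each (p = 0.0047 and 0.00058), and of the other members Slc39a7 alone, which was lower, had a p under 0.05. No member passed limma's threshold over all probes, an adjusted p below 0.1, and 17 of the 30367 probes did (0.056%). At an unadjusted p under 0.05, Slc39a4 and Slc39a7 were lower in HPD, against 5.55% of all probes, and Slc30a1 was higher, against 5.86% of all probes. Thus 3 of the 10 members had such a p, beside 11.4% of all probes. The median diet difference was 0.12 over the 5 importers and 0.02 over the 5 exporters by the brighter probe of each gene, beside 0.11 over all probes. The importer median turned on the probe taken for Slc39a14. Its brighter probe differed by 0.38 and its other probe by -0.47, and with the latter the importer median would be negative.

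**Figure D1:**
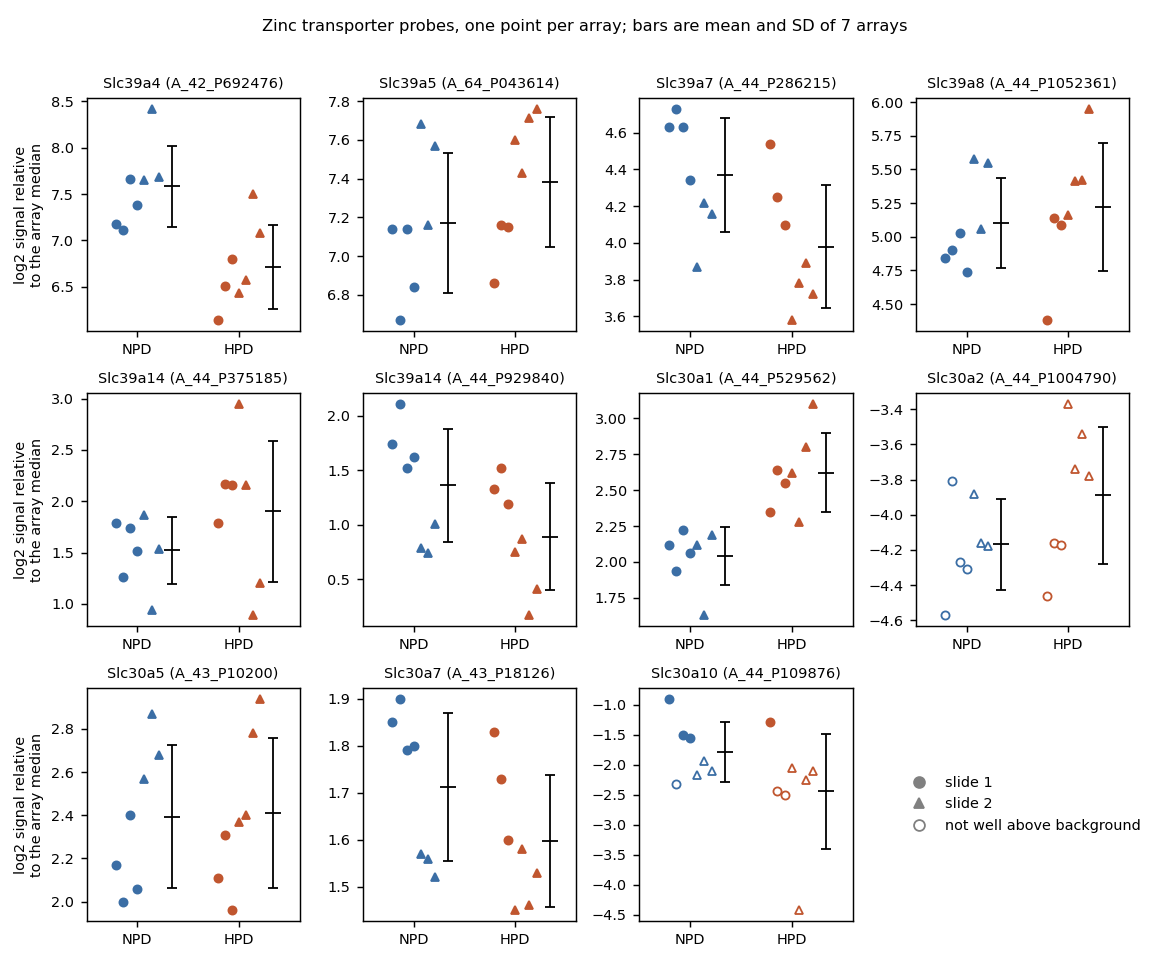
Log2 signal relative to the array median (vertical axis) of the 11 zinc transporter probes on each of the 7 NPD and 7 HPD arrays, with the mean and SD of each group. Circles are arrays of slide 1 and triangles arrays of slide 2, and open symbols are signals not well above background. The 7 HPD arrays of Slc30a1, from 2.28 to 3.1, all lie above the 7 NPD arrays.

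Slc39a4 encodes the importer that takes up zinc from the intestinal lumen and is mutated in the zinc deficiency disease acrodermatitis enteropathica. Its probe lies on the minus strand of rat chromosome 7 in build rn4, and its first 30 bases, shown to identify the transcript measured, cover chr7:114661973-114662002.

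Slc39a4 A_42_P692476: ttggatccactacgggtagctggagggttc

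The log2 signal of Slc39a4 on NPD arrays 1 to 7 was 7.18, 7.11, 7.66, 7.38, 7.65, 8.42 and 7.68. On HPD arrays 1 to 7 it was 6.14, 6.51, 6.80, 6.43, 6.57, 7.50 and 7.08. Every HPD array was below the NPD mean, and the groups overlapped through HPD array 6 alone, which lay above NPD arrays 1, 2 and 4. The mean was 7.58 ± 0.44 in NPD and 6.72 ± 0.45 in HPD (SD, n = 7 each), a 1.82-fold lower signal (diet difference -0.86, standard error 0.23, 95% confidence interval -1.38 to -0.34). Relative to the median of all probes the difference was -0.97. The exact two-sided permutation test over the arrays gave p = 0.0047, and limma's adjusted p over all probes was 0.42. The difference was -0.85 among the arrays of slide 1 and -1.02 among those of slide 2. The slides differed for this probe by 0.50 for slide 2 minus slide 1.

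The call for Slc39a4 depended on the processing. Its adjusted p was 0.06 after quantile normalization, under which 0.0692% of all probes were called, and 0.065 after cyclic loess (0.0461% called). With slide as a block it was 0.19 (0.0889% called) and, combined with cyclic loess, 0.054 (0.132% called). With replicate number as a block it was 0.094 (0.0263% called). In the table of log2 values deposited by the authors it was 0.074 (0.0681% called) and, with slide as a block, 0.018 (10.5% called). After normexp background correction it was 0.069, under which 16.9% of all probes were called. In the other ways the adjusted p was above 0.1. With 75th percentile centring it was 0.41, with spot-median centring 0.36 and with median pixel signals 0.14. With the filter on dim probes it was 0.26 and with the mean of a gene's probes 0.40. With each array left out in turn it ranged from 0.13 to 0.63. Over 28 ways of processing, the diet difference ranged from -1.06 to -0.72 and its unadjusted p was under 0.05 in all 28. These 28 include the one reported and the fits that each leave out 1 array.

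Markers of Paneth cells, the antimicrobial secretory cells of the small intestinal crypt, were read beside Slc39a4. Their mean log2 level over 5 genes (Mmp7, Defa24, Defa6, Itln1 and Pla2g2a) ranged from 3.75 to 5.08 on the NPD arrays and from 1.48 to 4.42 on the HPD arrays. By limma, 1 of the 5 genes was lower at an unadjusted p under 0.05 (Mmp7) and none passed the adjusted threshold. The differences ran from -2.24 (Defa24) to 0.28 (Itln1), with 4 of the 5 below 0. Defa24 was not well above background on 2 HPD arrays and Defa6 on 1. Whether Paneth cells were present in these samples was not tested, nor was any part of theirs in the Slc39a4 difference. The median difference of the Paneth list was -0.75, the lowest among the marker lists. Medians of the others lay between -0.20 (immune) and 0.15 (absorptive). Genes with an unadjusted p under 0.05 by limma also occurred in both directions among the goblet and stromal markers. Such genes were only lower among the epithelial and the stem and cycling markers. They were only higher among the immune and red blood cell markers. The mean level of the absorptive markers was 6.53 ± 0.25 in NPD and 6.65 ± 0.26 in HPD (SD, n = 7 each).

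Slc39a5 encodes an importer of the basolateral membrane of enterocytes, on the blood side of the cell. Its log2 signal ranged from 6.67 to 7.68 (median 7.14) in NPD and from 6.86 to 7.76 (median 7.43) in HPD. The ranges overlapped almost throughout, and 4 of the 7 HPD arrays were above the NPD mean. The diet difference was 0.21 with a 95% confidence interval of -0.20 to 0.62 and a limma adjusted p of 0.58. On both slides it was positive, at 0.11 and 0.15.

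Slc39a7 encodes the importer that releases zinc from the endoplasmic reticulum and Golgi into the cytosol. Its 60-base probe spans 541 bases of the plus strand of chromosome 20 in rn4 (chr20:4963365-4963905), so that it crosses an exon junction, and it is shown whole because it reads spliced transcript.

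Slc39a7 A_44_P286215: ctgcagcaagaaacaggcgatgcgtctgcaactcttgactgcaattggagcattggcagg

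Slc39a7 had a log2 signal of 4.63, 4.73, 4.63, 4.34, 3.87, 4.22 and 4.16 on NPD arrays 1 to 7. The HPD arrays 1 to 7 gave 4.54, 4.25, 4.10, 3.58, 3.78, 3.89 and 3.72. The slides differed for this probe, by -0.52 for slide 2 minus slide 1, and the groups overlapped. The mean was 4.37 ± 0.31 in NPD and 3.98 ± 0.33 in HPD (SD, n = 7 each), a diet difference of -0.39 (standard error 0.17, 95% confidence interval -0.77 to -0.01). The exact two-sided permutation p was 0.045 and limma's adjusted p 0.43. Within slide 1 the difference was -0.29 and within slide 2 it was -0.34. It passed the adjusted threshold in 2 of 28 ways of processing, normexp correction and the authors' table once slide entered the fit, with an adjusted p of 0.09 and 0.052. These fits called 16.9% and 10.5% of all features.

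Slc39a8 encodes an importer of zinc and manganese. Its log2 signal ranged from 4.74 to 5.58 (median 5.03) in NPD and from 4.38 to 5.95 (median 5.16) in HPD. The HPD range enclosed the NPD range. The diet difference was 0.12 (95% confidence interval -0.35 to 0.60, limma adjusted p = 0.78), and within the slides it was -0.01 and 0.09.

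Slc39a14 encodes an importer of zinc, manganese and iron that is induced in inflammation. Its probes gave differences of opposite sign. Both lie on the minus strand of chromosome 15 in rn4. The first crosses an exon junction (chr15:50709260-50709828) and leaves 2 of its 3 forward reading frames open. The first 30 bases of the other cover chr15:50703862-50703891, and none of its forward frames is open. Both are shown because the reading of the gene turned on the probe.

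Slc39a14 A_44_P375185: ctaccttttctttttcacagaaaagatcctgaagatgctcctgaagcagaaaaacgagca

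Slc39a14 A_44_P929840: tgatggctgagtttctttaaaagagcttaa

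The junction probe A_44_P375185 had a log2 signal of 1.79, 1.26, 1.74, 1.52, 1.87, 0.94 and 1.53 on NPD arrays 1 to 7. On HPD arrays 1 to 7 it was 1.79, 2.17, 2.16, 2.95, 2.16, 0.89 and 1.20. Of the HPD arrays, 4 were above every NPD array and array 6 was below them all. The diet difference was 0.38 (95% confidence interval -0.25 to 1.01, limma adjusted p = 0.51).

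Probe A_44_P929840 of Slc39a14 gave 1.74, 2.11, 1.52, 1.62, 0.79, 0.74 and 1.01 on NPD arrays 1 to 7. The HPD arrays 1 to 7 gave 1.33, 1.52, 1.19, 0.75, 0.87, 0.17 and 0.41. Its diet difference was -0.47 (95% confidence interval -1.06 to 0.12, limma adjusted p = 0.47), and 6 of the 7 HPD arrays were below the NPD mean. The slides differed for this probe by more, -0.85 for slide 2 minus slide 1. Within slide 1 the diet difference was -0.40 and within slide 2 it was -0.29. With slide as a block it was -0.35 (limma adjusted p = 0.26). The log ratio of the first probe to the second within an array, a measure chosen after the values were seen, ranged from -0.85 to 1.08 in NPD and from 0.45 to 2.20 in HPD. It was 0.85 higher in HPD (standard error 0.31), by 0.86 on slide 1 and by 0.65 on slide 2, and above the NPD mean on 7 of 7 HPD arrays. This is a description, since the ratio was taken because the probes were seen to differ in sign, and the interval of each probe alone includes 0. Over the 14 arrays the Pearson correlation of the probes was 0.15.

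**Figure D2:**
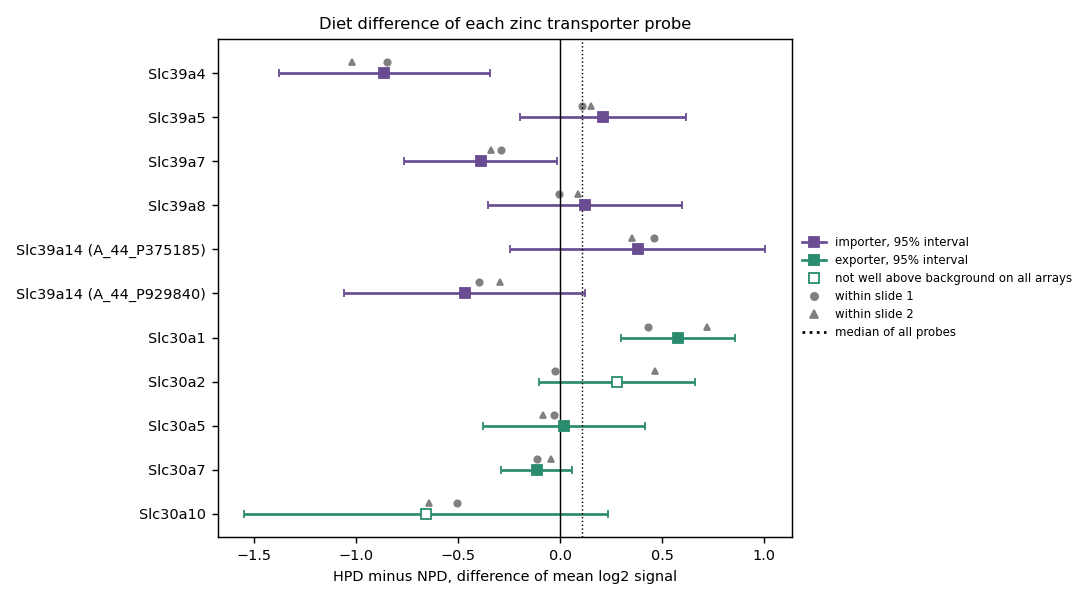
Diet difference (HPD minus NPD, horizontal axis, log2 scale) of each of the 11 probes, with its 95% confidence interval from 7 arrays per group. Grey symbols give the difference within each slide, the dotted line the median of all probes (0.11), and open squares probes not well above background on every array. The intervals of Slc39a4, Slc39a7 and Slc30a1 leave out 0, and the 2 probes of Slc39a14 lie on opposite sides of it.

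Slc30a1 encodes the exporter that carries zinc out across the plasma membrane, and in enterocytes it passes zinc on to the blood. Its probe lies on the plus strand of chromosome 13 in rn4, and its first 30 bases, shown to identify the transcript measured, cover chr13:107983689-107983718.

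Slc30a1 A_44_P529562: gttagcatttcttgtttagaactcagtgaa

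The log2 signal of Slc30a1 was 2.12, 1.94, 2.22, 2.06, 2.12, 1.63 and 2.19 on NPD arrays 1 to 7. It was 2.35, 2.64, 2.55, 2.62, 2.28, 2.80 and 3.1 on HPD arrays 1 to 7. All 7 HPD arrays lay above all 7 NPD arrays, as for 0.273% of all probes in either direction. The mean was 2.04 ± 0.20 in NPD and 2.62 ± 0.27 in HPD (SD, n = 7 each), a 1.49-fold higher signal (diet difference 0.58, standard error 0.14, 95% confidence interval 0.30 to 0.86). Relative to the median of all probes the difference was 0.47. An exact permutation test, two-sided, gave p = 0.00058, the lowest value possible with 7 against 7 arrays, and limma's adjusted p over all probes was 0.42.

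The slides hardly differed for Slc30a1 (0.04), and the diet difference was 0.43 within slide 1 and 0.72 within slide 2. Over 28 ways of processing it ranged from 0.39 to 0.64. It passed the adjusted threshold in 2 of them, with an adjusted p of 0.089 after normexp correction and 0.064 in the authors' table once slide entered the fit. These fits called 16.9% and 10.5% of all features. The log ratio of Slc30a1 to Slc39a4 within an array, which no centring of the arrays can move, was 1.44 higher in HPD (standard error 0.25), 1.28 on slide 1 and 1.74 on slide 2. This is given as a description, since the genes were paired for their values.

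The core of the metal response element, TGCACNC or TGCGCNC, was searched on both strands of the 250 bases before the transcription start in the RefSeq promoters of build GRCr8. Of 33469 promoters, 20.6% held at least 1 match and 4.9% at least 2, with overlapping matches counted apart. Entries were found for 6 of the 10 members (Slc39a5, Slc39a7, Slc39a8, Slc30a1, Slc30a2 and Slc30a5), and 4 of these 6 held a match. The promoters of Slc30a1 (chr13:106021769-106022018, plus strand) and Slc39a7 (chr20:4824809-4825058, plus strand, first of 2 starts) are shown 5′ to 3′, with matches in capitals, because they are the members with an entry whose unadjusted p was under 0.05 and their signals differed in opposite directions.

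Slc30a1: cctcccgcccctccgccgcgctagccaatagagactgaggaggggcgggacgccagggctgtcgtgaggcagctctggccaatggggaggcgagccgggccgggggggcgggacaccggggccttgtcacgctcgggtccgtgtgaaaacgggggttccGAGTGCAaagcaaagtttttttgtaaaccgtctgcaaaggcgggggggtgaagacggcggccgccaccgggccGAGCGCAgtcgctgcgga

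Slc39a7: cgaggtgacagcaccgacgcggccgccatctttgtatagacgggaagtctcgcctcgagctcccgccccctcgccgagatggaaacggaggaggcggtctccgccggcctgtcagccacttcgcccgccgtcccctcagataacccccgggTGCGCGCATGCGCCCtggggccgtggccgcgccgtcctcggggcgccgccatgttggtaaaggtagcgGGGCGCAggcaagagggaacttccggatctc

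Slc30a1 held 2 matches, starting 91 and 18 bases before the start. Slc39a7 held 4, of which 3 overlap or adjoin each other in 1 run. Slc30a5 held 2 that overlap each other, Slc30a2 held 2 before the first of its 2 starts, and Slc39a5 and Slc39a8 held none. Of the metallothioneins described below, Mt1a (listed by RefSeq as Mt1) held 6 and Mt2A held 4. At least 4 were found in 0.266% of all promoters, and those of Slc39a7, Mt1a and Mt2A were among them. A match describes these letters and is not evidence of binding.

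Slc30a2 encodes an exporter that loads zinc into vesicles of secretory cells, best known from the mammary gland. It was not well above background on any of the 14 arrays, so that no fold change is given. Its log2 signal ranged from -4.57 to -3.81 in NPD and from -4.46 to -3.37 in HPD.

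Slc30a5 and Slc30a7 encode exporters of the early secretory pathway, which supply zinc to enzymes such as alkaline phosphatases. Slc30a5 ranged from 2.0 to 2.87 (median 2.40) in NPD and from 1.96 to 2.94 (median 2.37) in HPD, so that the groups covered the same range. Its diet difference was 0.02 (95% confidence interval -0.38 to 0.41, limma adjusted p = 0.97), and its sign changed with the processing. Slc30a7 ranged from 1.52 to 1.90 (median 1.79) in NPD and from 1.45 to 1.83 (median 1.58) in HPD. Its diet difference was -0.12 (95% confidence interval -0.29 to 0.06, limma adjusted p = 0.59), the narrowest interval among the 11 probes.

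Slc30a10 encodes an exporter known chiefly for carrying manganese. Its signal was well above background on 3 NPD arrays (1, 3 and 4) and 1 HPD array (1), all on slide 1. The log2 signal ranged from -2.32 to -0.90 in NPD and from -4.42 to -1.29 in HPD, where array 5 stood apart. The diet difference was -0.66 (95% confidence interval -1.55 to 0.23, limma adjusted p = 0.48), and -0.33 without that array. It was -0.013 after normexp correction, -0.023 with median pixel signals, -0.064 in the authors' table and -0.039 there with slide in the fit.

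Across arrays the members varied with one another beyond diet. After removing diet and slide, the highest Pearson correlation among the 14 arrays was 0.80, between Slc39a5 and Slc30a1, followed by 0.72 between Slc39a8 and Slc30a1 and 0.66 between Slc39a4 and Slc30a5. The lowest was -0.65, between Slc39a4 and the junction probe of Slc39a14. These are descriptions over probes that share the same arrays and centring. Among 17423 probes, those most like Slc39a4 by the same measure read Mlf2 (0.93), Vkorc1 (0.91), Prkx (0.91), Rsu1 (0.91) and Brp44l (0.90). Their diet differences lay between -0.03 (Vkorc1) and 0.24 (Prkx), whereas that of Slc39a4 was -0.86.

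No further member of either family was called. Of 15 further Slc39a and Slc30a genes, 14 were on the array and 12 were well above background throughout 1 or both diets. By limma, 1 of the 14 had an unadjusted p under 0.05. That gene was Slc39a2, an importer of the plasma membrane, with -0.18 ± 0.84 in NPD and -1.34 ± 1.14 in HPD (SD, n = 7 each), a diet difference of -1.16 (limma adjusted p = 0.42) that was larger than that of Slc39a4. Slc39a2 was not well above background on 2 HPD arrays, and its exact two-sided permutation p was 0.053. Slc30a4, an exporter into vesicles, had a wide interval, -1.25 to 0.54 around a difference of -0.35. The median difference of the 14 genes was 0.08, beside 0.11 over all probes. Slc39a4l and Slc30a8 were not well above background on any array.

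Of 17 listed genes that bind, sense or use zinc, 16 were on the array. Limma called 3 of these, beside 0.056% of all probes. All 3 were upregulated in HPD and were metallothioneins, small cysteine-rich proteins that bind zinc in the cytosol. A further 3 had an unadjusted p under 0.05 by limma, namely Mt3 and Slc11a2, which were higher, and Anpep, which was lower. Counted with the called genes, 5 were higher and 1 was lower at such a p, beside 5.86% and 5.55% of all probes. The list was chosen with earlier results of these data known, so these counts are a description. The median difference of the 16 genes was 0.17.

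Mt2A had a log2 signal between 6.88 and 8.57 (median 7.95) in NPD and between 9.77 and 11.36 (median 10.58) in HPD. Mt1a ranged from 9.38 to 10.86 (median 10.21) in NPD and from 11.25 to 12.33 (median 11.91) in HPD. In both genes every HPD array was above every NPD array. Mt2A was 6.76-fold higher in HPD (limma adjusted p = 0.0014) and its second probe was higher too, with a difference of 2.28. Mt1a was 3.21-fold higher (limma adjusted p = 0.011). Mt4, a metallothionein of stratified epithelia, was 2.13-fold higher (limma adjusted p = 0.073), with ranges that overlapped slightly, 2.82 to 3.80 in NPD and 3.69 to 4.94 in HPD.

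Mt3, known from the brain, had a diet difference of 0.84 (limma adjusted p = 0.42) and was above the NPD mean on 7 of 7 HPD arrays. Mtf1, the transcription factor that raises metallothioneins and Slc30a1 when zinc is high, was at 0.50 ± 0.17 in NPD and 0.44 ± 0.20 in HPD (SD, n = 7 each, limma adjusted p = 0.81). Slc11a2, an importer of iron and other divalent metals, differed by 0.40 by its brightest probe (limma adjusted p = 0.42) and by 0.12 and -0.08 by its other probes. Anpep, a zinc-dependent aminopeptidase of the brush border, differed by -1.22 (limma adjusted p = 0.43, exact permutation p = 0.07) and was not well above background on 2 HPD arrays.

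**Figure D3:**
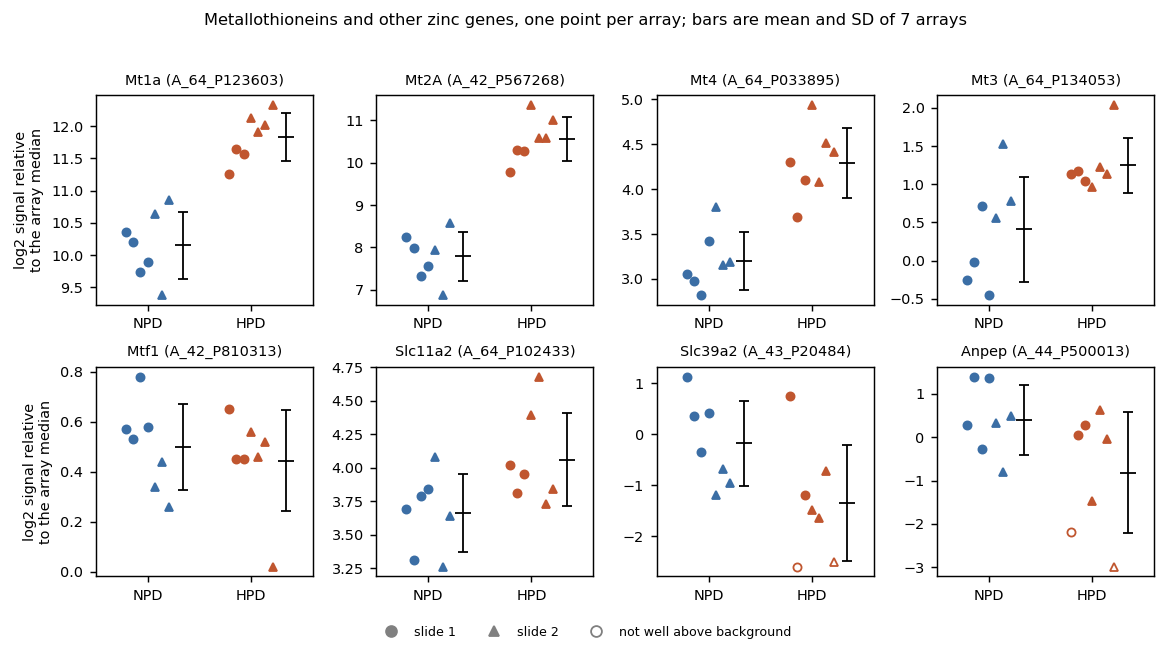
Log2 signal relative to the array median (vertical axis) of 8 further zinc genes on each of the 7 NPD and 7 HPD arrays, with the mean and SD of each group and symbols for the slides and for signals not well above background. The HPD arrays of Mt1a and Mt2A lie above all NPD arrays, while Mtf1 overlaps between the diets.

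The plot of the diet difference under each way of processing shows how far the direction and the call of Slc39a4, Slc39a7 and Slc30a1 held. The sign of all 3 was kept in all 28 ways, in which 7 called Slc39a4 and 2 each called Slc39a7 and Slc30a1. Those 2, normexp correction and the authors' table with slide, called 16.9% and 10.5% of all features.

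**Figure D4:**
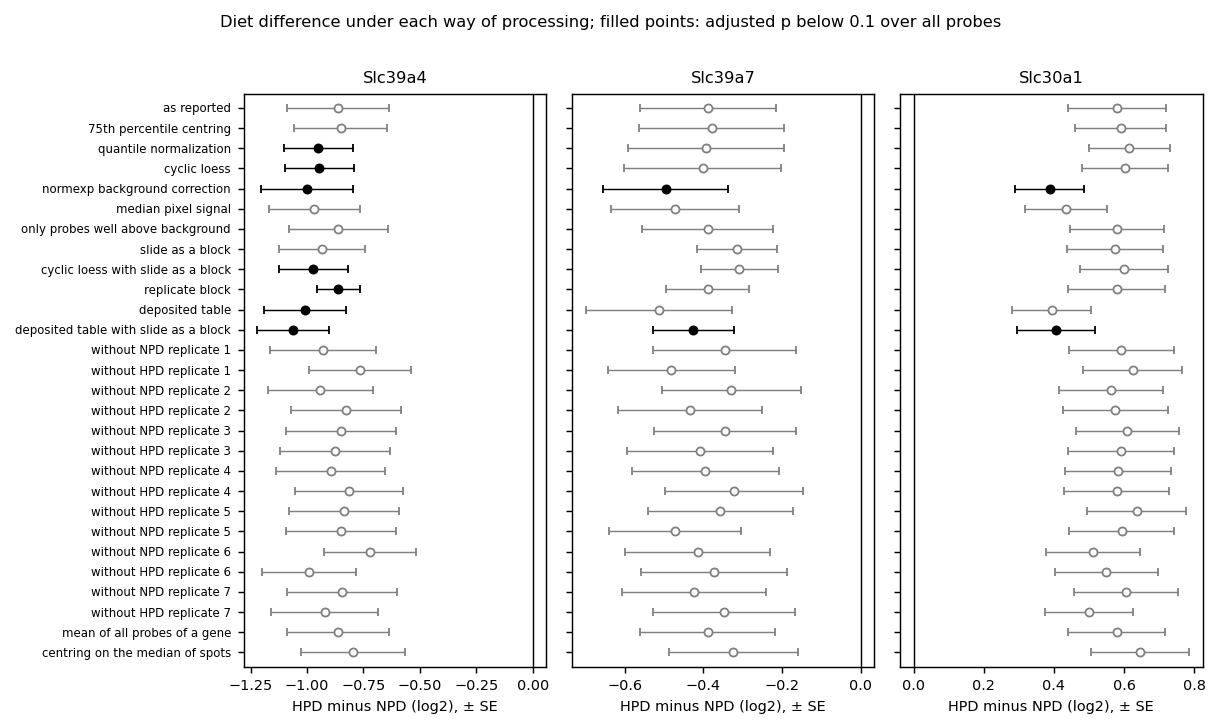
Diet difference (HPD minus NPD, horizontal axes, log2 scale, ± standard error) of Slc39a4, Slc39a7 and Slc30a1 under 28 ways of processing (vertical axis). Filled points have an adjusted p below 0.1 over all features. Slc39a4 stays between -1.06 and -0.72 and Slc30a1 between 0.39 and 0.64.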

How the data were processed

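Total RNA from colonocytes of 14 rats was hybridised to 1-colour (Cy3) Agilent arrays of 62976 spots. The scanner files deposited by the authors hold intensities extracted with Feature Extraction 10.7.3.1, background-subtracted and detrended within each array, with probe coordinates on rn4. The authors also deposited a table of log2 values, centred by array with replicate spots averaged, of 26414 gene names. Per the study's methods, 1 array of each diet was removed as an outlier, and those arrays were not analysed here.

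Log2 processed intensities of unflagged, non-control spots were averaged per probe and centred on the array median over 30367 probes. For the diet differences, a linear model with no term but diet was fitted in limma 3.58.1 (R 4.3.3), its variances were moderated by eBayes, and p-values were adjusted over all probes by Benjamini-Hochberg, with a threshold of 0.1. Single probes were also tested with an exact two-sided permutation test over the 1716 distinct splits of the arrays. The limma step was run on simulated data with independent probes and no slide effect, so that run does not cover correlated probes or slides. Named genes were every member with all its probes, further zinc transporters and zinc-handling genes with an unadjusted p under 0.05 by the brightest probe, Mtf1, Mt1a and Mt2A, and the 5 probes most correlated with Slc39a4 after diet and slide. The members and lists were chosen with earlier results of these data known. Alternatives varied the centring, normalization, background correction, signal, filter, blocks, probe rule and threshold and left out each array in turn. Centring on the median of spots was added after seeing the data. The number of arrays limits the precision, and so does signal near background for dim probes. Sequences came from the scanner files and from RefSeq promoters of GRCr8.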

Additional observations from a re-analysis of the deposited data

Results flagged for a closer look

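Among 48 groups of 7 arrays, 3 held an array that lay far from the others of its diet, where chance flags about 1 in 20 groups. The groups were those of the members, the zinc genes described above and the 5 probes most correlated with Slc39a4. Slc30a10 was at -4.42 on HPD array 5, next to -2.50 for the nearest array, and neither was well above background. Mtf1 was at 0.02 on HPD array 7, with the nearest at 0.45, and its diet difference was 0.01 without that array. Mt3 was at 2.04 on the same array, with the nearest at 1.23, and its diet difference was 0.71 without it.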

How the results depend on the processing

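The number of members called was 0 with each array left out in turn, with 75th percentile or spot-median centring, with median pixel signals, with the filter on dim probes, with slide as a block, with the mean of a gene's probes and at a threshold of 0.05. It was 1, Slc39a4, after quantile normalization, cyclic loess, cyclic loess with slide as a block, the replicate block and in the deposited table. Once slide entered the fit to that table it was 3 (Slc39a4, Slc39a7 and Slc30a1), beside 10.5% of all features called. After normexp correction it was 4, beside 16.9% of all features called. The added member was Slc30a2 (limma adjusted p = 0.089), which was not well above background on any array. The number of further zinc genes called (3) was 2 to 3 with an array left out. Beside the same shares of all features, it became 7 after normexp correction and 5 in the deposited table once slide was a block. The cause was not tested.

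Of 292 recomputed member values, 263 kept their sign and side of the threshold and 17 changed sign. Slc39a8 turned to -0.027 after normexp correction, -0.027 in the deposited table and -0.073 there with slide. Slc39a14 turned to -0.091 and -0.010 in the same fits and to -0.044 as the mean of its probes. Slc30a5 turned to -0.075 after normexp correction, -0.062 with median pixel signals, -0.058 with slide as a block, -0.032 with cyclic loess and slide, -0.10 in the deposited table and -0.16 there with slide, and lay between -0.071 and 0.098 with an array left out.

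Over all probes, 17 were called higher and 0 lower. Normexp correction gave 3274 higher and 1868 lower, the authors' log2 values gave 11 and 7 or, with slide, 1050 and 1717, and cyclic loess with slide 26 and 14. Leaving out HPD array 1 gave 65 higher and 86 lower, and HPD array 6 gave 17 and 11. Deviations of arrays of the same number correlated from -0.09 to 0.39, and 1 of 7 NPD arrays correlated best with its own number, so the numbers were not taken to pair the rats. The replicate block called 8 probes.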
